A study of Homo sapiens with 12 samples.

Results

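A stable line of HEK cells carrying wild-type TRPM7 behind a tetracycline-inducible switch was compared with itself, with and without the inducer. HEK is an established human embryonic kidney cell line. The comparison used 6 of the 12 arrays of the series, 3 labelled as given tetracycline and 3 labelled as untreated. Both groups have the genotype WT channel and, per the labels' protocols, grew in medium with 5 ug/mL blasticidin, an antibiotic used to select stable lines. The treated cells received 1 ug of tetracycline, with no volume given, for 72 hours. The remaining 6 arrays come from a line with TRPM7DKD, a mutant channel whose kinase domain was removed, with and without tetracycline in 3 arrays each, which the series design names as the nonfunctional control for the inducer. The labels do not say how many clones the WT line represents or whether the 3 samples of a group were separate cultures, so the p-values reflect the scatter of these samples and nothing wider, and that scatter may be technical. All WT-line arrays carry the transgene, so within this line an effect of the drug and an effect of the induced channel cannot be told apart.

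TRPM7 is a membrane protein that is at once an ion channel, which lets magnesium, zinc and calcium into the cell, and a protein kinase on its intracellular side. In tetracycline-inducible lines a repressor keeps the transgene silent until the drug releases it from the promoter. The series design states that overproduction of the channel damages and kills HEK cells, so genes of the known stress programmes are the natural ones to read. In the integrated stress response, kinases that sense unfolded protein, amino acid shortage, viral RNA or lack of heme slow translation and favour the making of the transcription factor ATF4, which together with C/EBP partners switches on DDIT3, ATF3, CHAC1 and genes for the synthesis and import of amino acids.

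Each value is the MAS5 signal of a probe set (a group of short probes for 1 transcript), given here as log2 of the signal, so a difference of 1 is a doubling. Every array had been scaled to a trimmed mean signal of 500.1, so a change is a change in a gene's share of the measured RNA, and fewer cells with a transcript and less of it per cell cannot be told apart. Pairs of WT-line arrays correlated at r = 0.887 to 0.916 across probe sets, and none shared identical values. The 3 untreated arrays had a 3′ to 5′ ratio of the actin control, a sign of RNA integrity, of 0.63 to 1.29 (log2), against 0.90 to 1.36 with tetracycline, so the groups overlapped. Added poly-A control RNA read lowest on replicate 3 of each group, at 6.63 untreated and 7.40 with tetracycline, against 7.93 to 8.70 on the other 4 arrays. Probe sets with both group means above 8 are called bright below, and their median SD was 0.23 in untreated and 0.25 in treated cells. The labelled cell type was checked against markers of HEK cells: 7 of the 10 measured were above 8 in both groups, among them EPCAM, CDH2, NEFL, VIM and IRS4. Blood (4 markers), endothelial (4) and hepatocyte (3) markers all had group means below 8 in both groups, and of 5 fibroblast markers COL1A1 was above it.

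The targeted gene itself did not check the labels. TRPM7 had 5 probe sets, and none passed the test in the WT line. On the brightest of them, 223324_s_at, the untreated arrays read 8.69, 8.12 and 8.60 and the treated arrays read 8.19, 7.79 and 6.88, a difference of -0.85 ± 0.36 (SE) with an adjusted limma p of 0.317. The other 4 differed by 0.11, -1.38, -1.10 and -2.0, and on the last of these, 239484_at, the treated arrays at 5.63, 3.24 and 6.11 all lay below the untreated ones at 7.05, 6.90 and 7.05. No TRPM7 probe set was therefore measurably higher with tetracycline. Where these probes lie relative to the sequence of the transgene was not analysed here.

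After tetracycline 723 of the 54613 probe sets changed at a Benjamini-Hochberg adjusted p under 0.05 in limma's moderated test, fitted on the 6 WT-line arrays alone. Of these 358 rose, which is 0.656% of those tested, and 365 fell, which is 0.668%. They belong to 549 named genes. On all 723 the 3 treated arrays lay wholly above or wholly below the 3 untreated ones, against 18.8% of all probe sets. This separation is tied to passing the test and is no separate evidence. Bright probe sets made up 72.1% of the changed ones but 29.7% of all, with 263 risen by a median of 1.11 and 258 fallen by a median of -1.26. In all, 7786 probe sets (14.3%) had an unadjusted p under 0.05, and the smallest adjusted p was 0.00786. The plot of change against signal shows the changed probe sets at both edges of the cloud. The count rested on single arrays: 15 probe sets passed without untreated replicate 1, 107 without untreated replicate 2, 2963 without treated replicate 1, and 0 without untreated replicate 3, treated replicate 2 or treated replicate 3, where 5954, 5680 and 5792 had an unadjusted limma p under 0.05. Under each of these 6 omissions all 63 changed probe sets of genes chosen for naming kept their direction. That was fixed in advance, since their groups did not overlap. Without treated replicate 2, for example, the adjusted limma p of these 63 ran from 0.0684 to 0.248.

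**Figure D1:**
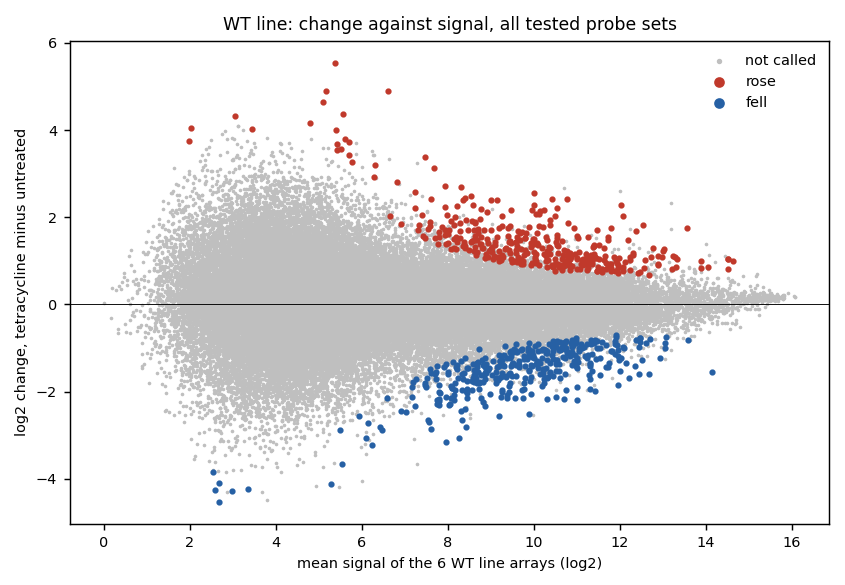
Change with tetracycline in the WT line (treated minus untreated mean, log2, vertical) against the mean log2 signal of the 6 arrays (horizontal), 1 point per tested probe set, grey where not called, red where risen and blue where fallen. The 358 risen and 365 fallen probe sets sit at the upper and lower edges, and most have a signal above 8.

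Factors of the integrated stress response had more risen members than any other of the 31 lists. Of 19 measured, 6 rose (ATF3, ATF4, CEBPB, CHAC1, DDIT3 and PPP1R15A) and none fell, with a median difference of 0.75. The background over all 19775 genes, each taken by its brightest probe set, was 0.991% risen and 0.627% fallen, with a median of 0.05 and 53.7% of genes above 0. Of the 19775 genes 9051 were bright, against 15 of the 19 listed. Bright probe sets passed more often, with 263 of 16233 risen, so the shares over all genes are low for mostly bright lists. In 12 of the 19 the treated arrays all lay above the untreated ones, against 12.3% of all genes. In none did they all lie below, against 9.06%. Taking any probe set of a gene in place of its brightest, 8 of the 19 rose, with CEBPG (1.33 ± 0.17) and STC2 (1.55 ± 0.29) added, against 1.41% of all genes with a rise and 1.41% with a fall. Counts of lists below refer to the brightest probe set unless stated. The list, like all those used here, was chosen with earlier results of these data known.

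DDIT3, which encodes the pro-apoptotic factor CHOP, read 9.03, 9.32 and 8.73 in untreated cells and 11.17, 11.2 and 10.91 with tetracycline. The treated arrays lay close together and far above the untreated ones, a 4.18-fold rise (2.06 ± 0.20, adjusted limma p 0.00786). ATF3, a stress-induced repressor, read 11.2, 11.27 and 10.7 against 12.76, 13.2 and 13.31 on its brightest probe set, 202672_s_at, a rise of 2.03 ± 0.20 (adjusted limma p 0.00786), and its other bright probe set rose by 2.15. PPP1R15A, the phosphatase subunit GADD34 that reverses the translational block, went from 8.25, 8.01 and 8.83 to 9.98, 10 and 10.49. Its groups were separated by over 1 log2 unit, with a change of 1.79 ± 0.26. CEBPB, a C/EBP partner of ATF4, rose by 1.16 ± 0.18, from 10.51, 10.98 and 10.97 to 12.19, 11.92 and 11.83. ATF4 itself, abundant already, went from 14.01, 14.17 and 14.14 to 14.93, 14.74 and 15.12, a change of 0.82 ± 0.15. CHAC1, an enzyme that degrades glutathione, was dim when untreated at 7.13, 6.54 and 7.19 and read 9.82, 8.26 and 8.93 after the drug, a change of 2.05 ± 0.40.

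Genes for amino acid synthesis and transport, many of them known ATF4 targets, followed in part. Of 19 measured, 4 rose (ASNS, CTH, SLC3A2 and SLC1A4), the dim PYCR3 fell, and the median was 0.40. CTH, which makes cysteine from cystathionine, rose by 1.60 ± 0.21, from 9.79, 10.05 and 9.41 to 11.61, 11.35 and 11.1. ASNS, asparagine synthetase, rose by 1.04 ± 0.15, from 12.8, 13.01 and 12.64 to 13.96, 13.77 and 13.83. SLC1A4, a carrier of neutral amino acids, changed by 1.32 ± 0.22, and SLC3A2, the heavy chain shared by several amino acid exchangers, by 0.92 ± 0.18. In each of the 4 the lowest treated array stood above the highest untreated one. PYCR3, an enzyme of proline synthesis, fell from 7.94, 7.29 and 8.55 to 5.67, 4.84 and 4.6.

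Some promoters of risen members carry the letters that ATF4 and C/EBP dimers are known to bind, and 3 are shown because they hold the composite element searched, TGATGNAA on either strand, in capitals. They are RefSeq sequences of GRCh38.p14, 5′ to 3′ on the gene's strand, from 250 bases before to 50 after the first listed start. ATF3 lies on the plus strand at chr1:212565157-212565456 with the match starting at -191, ASNS on the minus strand at chr7:97872359-97872658 with the match at -68, and SLC3A2 on the plus strand at chr11:62881449-62881748 with the match at 37, in reverse orientation.
ATF3: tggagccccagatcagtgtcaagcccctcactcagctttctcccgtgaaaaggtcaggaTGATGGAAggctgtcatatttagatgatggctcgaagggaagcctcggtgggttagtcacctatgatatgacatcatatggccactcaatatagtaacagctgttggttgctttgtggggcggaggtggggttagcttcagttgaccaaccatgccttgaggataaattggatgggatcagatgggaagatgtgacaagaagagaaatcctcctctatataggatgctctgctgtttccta
ASNS: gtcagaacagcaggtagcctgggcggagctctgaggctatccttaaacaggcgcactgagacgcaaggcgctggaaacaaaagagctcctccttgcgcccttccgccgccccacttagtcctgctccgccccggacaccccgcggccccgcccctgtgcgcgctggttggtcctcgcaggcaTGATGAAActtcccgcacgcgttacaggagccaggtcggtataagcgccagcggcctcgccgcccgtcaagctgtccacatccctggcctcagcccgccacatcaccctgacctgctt
SLC3A2: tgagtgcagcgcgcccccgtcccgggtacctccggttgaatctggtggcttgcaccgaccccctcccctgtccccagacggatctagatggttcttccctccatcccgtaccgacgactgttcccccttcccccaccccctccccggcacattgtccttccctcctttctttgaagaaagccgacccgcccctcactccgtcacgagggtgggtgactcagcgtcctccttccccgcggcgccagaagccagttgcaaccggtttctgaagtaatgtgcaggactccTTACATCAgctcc
Of the 6 risen stress response factors ATF3 and CHAC1 had a match, and of the 4 risen amino acid genes ASNS and SLC3A2 had one. The same letters stood in 3.67% of all 27303 promoters and in 2.62% of the 15381 promoters of genes with a probe set. Among bright risen genes 9 of the 174 with a promoter held the element (5.17%), and among bright fallen genes 0 of 174 did. These shares are a description, since no occupancy was measured and no share was taken for bright genes that did not change.

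The 3 other motifs searched, all on both strands, spread differently. The E-box CACGTG, bound by MYC and by other helix-loop-helix factors, stood in 19.5% of bright risen promoters (34 of 174), 10.3% of bright fallen ones (18 of 174) and 8.90% of promoters of genes with a probe set. The cyclic AMP element TGACGTCA was found in 6.90%, 5.17% and 2.67% of the same promoter groups, and the AP-1 site TGANTCA in 3.45%, 3.45% and 5.83%. Shares among bright genes that did not change were not computed, so signal level and response cannot be told apart in these shares. TGACGTCA and TGANTCA share letters but never the same 7 bases. ATF4 was the risen stress factor with an E-box, PPP1R15A the one with a cyclic AMP element and DDIT3 the one with an AP-1 site.

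Cytosolic aminoacyl-tRNA synthetases, which load tRNAs and are partly under ATF4, split. SARS1 rose by 0.90 ± 0.14 and RARS1 fell by 1.85 on the log2 scale, 1 each of 17, and the median was -0.10. SARS1 went from 12.53, 12.42 and 12.41 to 13.41, 13.26 and 13.39. RARS1 went from 12.79, 12.38 and 13.48 to 11.6, 10.82 and 10.69. Glycyl and alanyl synthetases, GARS1 and AARS1, differed by 0.68 and 0.98 with adjusted limma p-values of 0.0848 and 0.0939.

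Endoplasmic reticulum chaperones and sensors had 2 of 21 risen and none fallen, with a median of 0.30 and 18 of the 21 differences above 0. XBP1, the transcription factor of the unfolded protein response, read 11.01, 11 and 10.96 untreated and 11.89, 12.04 and 12.15 treated, with little scatter on either side. HERPUD1, which serves the degradation of misfolded proteins, went from 10.88, 10.6 and 11.01 to 11.97, 11.82 and 11.93, a change of 1.08 ± 0.17. The sensor ERN1, which splices XBP1, differed by 1.13 and the secreted factor MANF by 0.81, with adjusted limma p-values of 0.0561 and 0.0524.

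Immediate early factors lay mostly above 0 but few passed: 16 of 17 differences were positive, with a median of 0.56, and KLF4 and the dim MAFF rose, with FOSL2, an AP-1 subunit, added by a dim probe set (1.84 ± 0.39). KLF4, a zinc finger factor, changed by 1.09 ± 0.22 from 10.63, 10.99 and 10.46 to 11.36, 11.9 and 12.1. EGR1, the classical growth factor response gene, read 10.09, 9.25 and 8.89 against 11.16, 11.09 and 10.13, a difference of 1.38 with an adjusted limma p of 0.0724. Its lowest treated value was barely above its highest untreated one. JUND and KLF6 differed by 0.80 and 1.35 and did not pass either (adjusted limma p 0.0557 and 0.0669).

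MAPK phosphatases and Sprouty proteins, feedback brakes on growth factor signalling, had the second highest median of the 31 lists, 0.82 over 15 genes, yet DUSP8 alone rose (1.15 ± 0.24). DUSP1, the stress-induced nuclear phosphatase, read 12.07, 12.98 and 11.92 against 13.02, 14.63 and 14.52. Its treated replicate 1 was level with the highest untreated array, and its difference of 1.73 had an adjusted limma p of 0.058. Among 13 targets of the Hippo pathway effector YAP, CCN1 and AJUBA rose. CCN1, a secreted matricellular protein, went from 9.71, 9.13 and 9.40 to 10.56, 11.6 and 11.87, a 3.82-fold change, and AJUBA, an adaptor at cell junctions, changed by 1.13 ± 0.22. CCN2, the best known partner of CCN1, spread widely and overlapped, with 9.55, 7.80 and 7.31 untreated and 8.58, 10.22 and 9.59 treated.

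MYC fell. The oncogenic transcription factor that drives ribosome production and growth read 11.29, 12.31 and 11.5 in untreated cells and 10.1, 10.61 and 10.17 with tetracycline, a change of -1.41 ± 0.26 (adjusted limma p 0.0294). The 3 treated arrays lay below all untreated ones. None of the 8 other measured members of its network passed. MXD1, which competes for the partner MAX, differed by 0.90 (adjusted limma p 0.067), and MAX by -0.55.

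Growth arrest genes rose among the p53 targets, 3 of 16 with none fallen and a median of 0.33. CDKN1A, the cyclin-dependent kinase inhibitor p21, went from 10.65, 11.31 and 11 to 12.23, 12.41 and 12.77, a 2.79-fold rise (1.48 ± 0.21). GADD45A, a stress sensor of DNA damage, rose by 1.49 ± 0.26 and GADD45B by 1.65 ± 0.28, and the other bright probe sets of GADD45B rose as well, by 1.38 each. All 3 genes are also known to rise in stress without p53. DDB2, a DNA repair gene under p53, differed by 0.62 with an adjusted limma p of 0.227.

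Cell death regulators of the BCL2 family and the death receptors had 1 of 20 genes called on its brightest probe set. That was TNFRSF12A, the receptor of the cytokine TWEAK, which read 9.17, 9.44 and 8.04 untreated. With tetracycline its arrays read 11.1, 11 and 11.06, a 4.5-fold rise in which the treated arrays were tight (SD 0.05) and the untreated ones wide (SD 0.74). On other bright probe sets BID, a BH3-only protein, fell by 1.43 and by 1.16 on the log2 scale, and BNIP3L, a mitophagy receptor, rose by 1.19. HRK, a pro-apoptotic BH3-only protein, differed by 1.22 (adjusted limma p 0.102).

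Of the ferritin, heme oxygenase and NRF2 list, 2 of 20 genes rose and none fell. HMOX1, which breaks down heme, went from 8.79, 8.85 and 9.59 to 10.77, 12.1 and 10.81, a 4.43-fold rise. FTL, the light chain of the iron store ferritin, rose from 13.45, 13.29 and 13.46 to 14.42, 14.43 and 14.35, a doubling (1.00 ± 0.14), and its other bright probe set rose by 1.09. The median of the list was 0.11, and 11 of its 20 differences were above 0. SQSTM1 differed by 0.50 and PGD, of the pentose phosphate pathway, by -0.80, neither passing (adjusted limma p 0.234 and 0.0611).

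Heat shock genes split. HSPB8, a small chaperone that guides misfolded proteins to autophagy, went from 9.21, 10.27 and 9.21 to 11.42, 12.71 and 11.81, a 5.34-fold rise. DNAJB1, the co-chaperone typical of the cytosolic heat shock response, fell from 11.32, 11.76 and 11.58 to 10.85, 10.75 and 10.33. The list had 1 risen and 1 fallen of 16 and a median of -0.06, and CCT5, a chaperonin subunit, fell by 1.30 on another probe set.

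Histone genes had the largest median of any list, 1.52 over 10 measured genes, and all 10 differences were above 0. Of the 10 genes 5 were bright. H2BC5, H2BC12 and H2BC11 rose, the last dim when untreated at a mean of 2.61. H2BC12, a core histone H2B gene, went from 12.47, 13.26 and 12.3 to 13.81, 14.79 and 14.71. H1-2, a linker histone, had the widest shift of the list's bright members, from 8.91, 10.18 and 9.04 to 10.18, 12.64 and 13.32, but its scatter left an adjusted limma p of 0.0685. On this gene treated replicate 1 read the same as untreated replicate 2. Of the 15 largest bright rises 3 are also H2B genes, H2BC12L, H2BC6 and H2BC9, at 2.28, 2.21 and 2.17. These genes have nearly identical sequences, so their probe sets may share transcripts and cannot be counted as separate events.

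Few proliferation genes passed. Of 25 mitotic genes MKI67 rose, by 1.08 ± 0.17 on 212022_s_at, from 11.79, 11.71 and 11.57 to 12.49, 12.83 and 13.01, and of 24 replication genes RRM2, a subunit of ribonucleotide reductase, rose by 0.86 ± 0.17. The medians of these lists were 0.15 and -0.00, and MCM6, a replicative helicase subunit, fell by 2.18 on a dim probe set. CCND2, cyclin D2, was the second largest bright rise on 200951_s_at, from 8.98, 9.34 and 9.29 to 11.16, 12.06 and 11.67 (2.42 ± 0.23). The brightest CCND2 probe set, 200953_s_at, did not follow it: it read 11.49, 11.8 and 11.94 untreated and 11.54, 11.65 and 11.49 treated.

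Cell surface and matrix genes rose in several lists. Of 19 annexins, S100 and membrane proteins, LGALS1, EMP3 and ANXA1 rose, and on dim probe sets CD44, the hyaluronan receptor, rose on 5, by 1.88 to 2.0. LGALS1, the sugar-binding protein galectin-1, read 9.28, 9.10 and 8.89 and then 10.73, 11.2 and 11.58, a 4.23-fold rise. ANXA1, a phospholipid-binding protein activated by calcium, rose by 1.55 ± 0.24 from 11.02, 10.8 and 11.08 to 12.11, 13.1 and 12.32. EMP3, a small tetraspan membrane protein, rose by 1.76 ± 0.24. In all 3 genes the treated replicate 1 was the lowest of its group.

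Of 18 extracellular matrix genes TIMP1, LAMB2 and LAMB3 rose, and on any probe set 6 did, with FN1 (1.02), LAMC1 (1.22) and TIMP2 (2.02) added. TIMP1, an inhibitor of matrix metalloproteinases, went from 12.49, 12.76 and 12.83 to 13.5, 13.92 and 13.98. LAMB3, a laminin chain, went from 4.88, 2.30 and 2.95 to 7.93, 7.52 and 7.79, so it stayed dim on every array. LAMB2 rose by 1.43 ± 0.27. COL1A1 differed by 0.88 (adjusted limma p 0.0734), while the 4 other fibroblast markers, COL1A2, DCN, LUM and PDGFRA, had group means of 3.80 to 6.41. ITGA5, the fibronectin receptor subunit, was the 1 of 22 actomyosin and adhesion genes to rise (1.05 ± 0.22), and ZYX, a focal adhesion protein, rose by 0.92 on its other bright probe set. IFI27 was the 1 of 17 interferon-stimulated genes to rise, from 3.62, 3.88 and 2.72 to 7.83, 7.26 and 7.12, all dim, and MAP2 the 1 of 16 neuronal genes, by 1.5 ± 0.28.

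Sterol genes fell in part. Of 23 genes of cholesterol and fatty acid synthesis LSS and DHCR7 fell and none rose, with a median of -0.43 and 3 differences above 0. The list medians of single arrays overlapped, from -0.40 to 0.24 untreated and from -0.48 to -0.25 treated. LSS, which closes the sterol ring, read 10.9, 11.18 and 11.78 and then 10.34, 9.41 and 9.50, a change of -1.54 ± 0.28. Its dim probe set 211018_at went the other way and rose by 1.39 (adjusted limma p 0.0444). DHCR7, the last enzyme of cholesterol synthesis, changed by -1.11 ± 0.23. NSDHL, another sterol enzyme, had an adjusted limma p of 0.0539 at -1.21 on its brightest probe set and fell by 1.70 on 215093_at (adjusted limma p 0.0169). On the brightest probe sets of LSS and DHCR7 the treated arrays lay below the untreated ones. NPC1, which exports cholesterol from lysosomes, rose by 0.96 ± 0.17 as the 1 of 22 lysosomal and autophagy genes called on its brightest probe set. On other probe sets MAP1LC3B, which coats autophagosomes, rose by 0.81 and LAMP2, a lysosomal membrane protein, fell by 1.60, the last on a dim one.

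Ribosome biogenesis showed a shared lean without a single call. None of 19 genes passed, 16 differences were below 0 and the median was -0.45, against 0.05 for all genes. The list medians of single arrays overlapped, from -0.24 to 0.15 untreated and from -0.63 to -0.09 treated. POLR1B, a subunit of RNA polymerase I, differed by -0.79 (adjusted limma p 0.118) and the nucleolar NOP16 by -0.56 (0.184). The abundant nucleolar genes NPM1 and FBL stood at 0.07 and -0.08. Cytosolic ribosomal proteins leaned the other way, with all 15 differences above 0, a median of 0.16 and no call. Mitochondrial translation had 1 of 22 fallen, the elongation factor TSFM (-0.83 ± 0.16), with a median of -0.27. The respiratory chain had 1 of 25 fallen, ATP5MC1, a subunit of the ATP synthase ring (-0.82 ± 0.16), with a median of -0.07. ATP5MC3, its sister gene among the largest falls described below, is not in that list. On other probe sets MRPS30, of the mitochondrial ribosome, fell by 1.31 and the ribosomal protein gene RPL22 by 1.27.

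Ion handling genes did not pass. None of 14 magnesium transport and channel-kinase genes, 16 calcium genes or 17 zinc genes and metallothioneins was called, with medians of -0.24, 0.20 and 0.05. MAGT1, a magnesium transporter, read 13, 12.63 and 12.8 untreated and 12.61, 11.96 and 12.17 with tetracycline, a difference of -0.56 ± 0.19 (adjusted limma p 0.182). The groups of MAGT1 were separated by a narrow margin. TRPM6, the sister channel-kinase of TRPM7, was dim, at means of 6.11 and 5.67. The proteasome (21) and glycolysis and hypoxia (25) lists had no call on the brightest probe sets, with medians of -0.12 and -0.03. On other bright probe sets the proteasome genes PSMC2, PSMA2 and PSMD12 fell by 1.59, 1.34 and 0.91 on the log2 scale, while no glycolysis gene had a call on any.

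**Figure D2:**
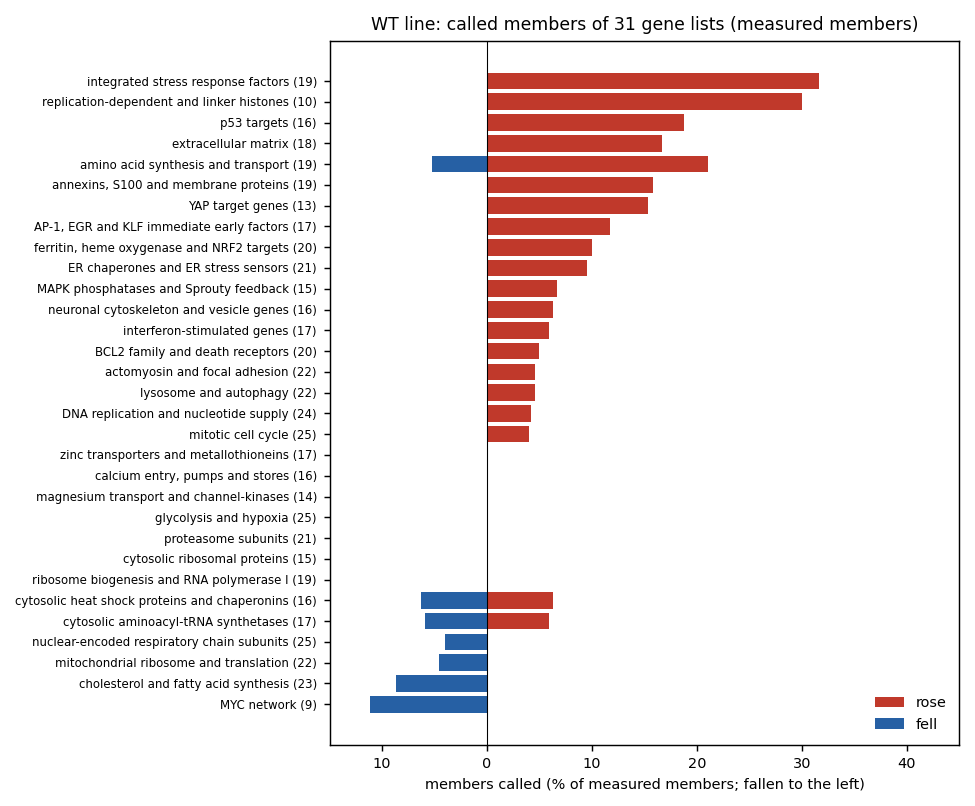
Share of the measured members of each of the 31 gene lists (number measured in parentheses) that rose, to the right, or fell, to the left, after tetracycline in the WT line, with 1 probe set per gene. The stress response factors, with 6 of 19 risen, have the longest bar, and 7 lists, ribosome biogenesis among them, have none.

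The 15 bright genes with the largest rises changed 3.68-fold to 5.85-fold. Besides those above they include C11orf96, which led with 8.36, 9.48 and 8.37 untreated and 10.18, 11.38 and 12.3 treated (2.55 ± 0.46). GEM, a small GTPase that dampens voltage-gated calcium channels, rose from 9.10, 9.84 and 9.51 to 10.77, 11.68 and 12.08. GFPT1, the first enzyme of the hexosamine pathway, rose from 9.94, 9.93 and 9.75 to 11.42, 12.17 and 11.66 on 202721_s_at (1.88 ± 0.21). Of its other bright probe sets 202722_s_at rose by 1.37, and 227027_at and 226886_at differed by 0.75 and 0.13 without passing. TIMP2 rose by 2.02 on 203167_at but differed by -0.21 and 0.03 on its other bright probe sets. Of the 15 genes 10 had a single bright probe set.

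The 15 largest bright falls were 3.66-fold to 5.76-fold. TMBIM4, a Golgi membrane protein that protects from cell death, fell on all 3 of its bright probe sets, by -1.98, -2.17 and -2.19. On 223892_s_at it went from 12.08, 12.18 and 12.08 to 10.84, 9.77 and 9.16. CYP4X1, a cytochrome P450 with 1 bright probe set, went from 10.92, 10.78 and 11.17 to 9.38, 8.63 and 8.68. CIRBP, an RNA-binding protein induced by cold, fell on 2 probe sets, by -1.98 and -1.45, while another differed by 1.07. TRIM14, a ubiquitin ligase relative, went from 10.66, 10.72 and 11.08 to 9.81, 8.43 and 7.77, with the treated arrays far apart. The others are CDC16, PDHA1, SUB1, ATP11B, ATP5MC3, PDCD2, PPP1CB, HNRNPDL, SRSF7, PAFAH1B1 and TM9SF3.

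**Figure D3:**
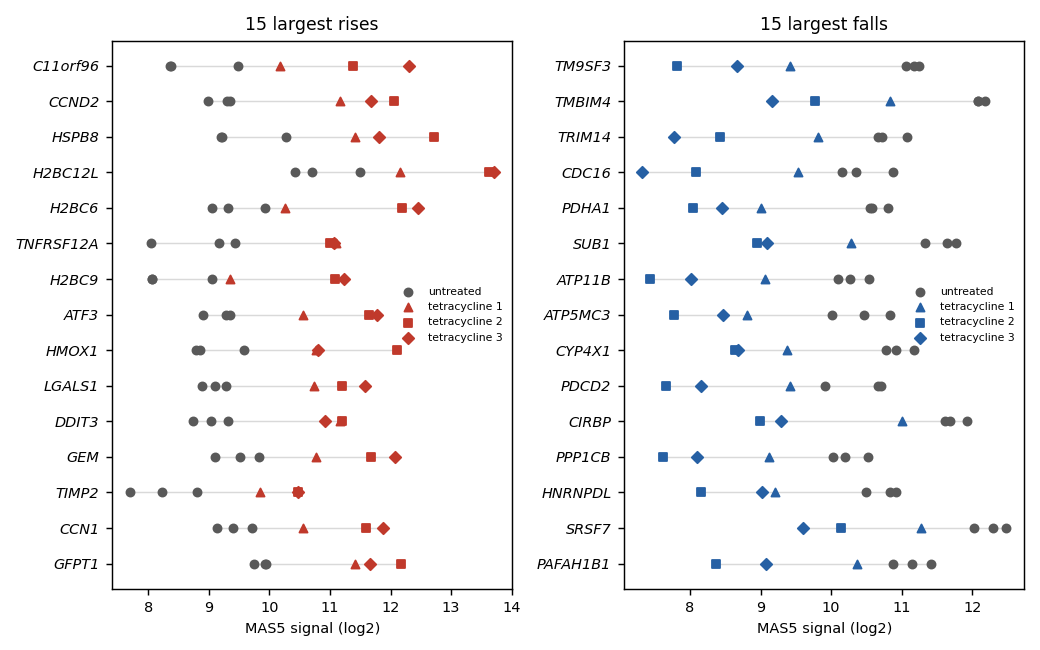
MAS5 signal (log2, horizontal) of the 15 largest bright rises (left) and falls (right) on each of the 6 WT-line arrays, 1 point per array, with untreated arrays in grey and a symbol for each treated replicate. Groups do not overlap in any row, which the choice of these genes required, and the triangle of treated replicate 1 lies nearest the untreated points in 13 of the rises and all 15 falls.

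Several of the largest bright falls were read on 1 probe set of a gene while a brighter one was not called. TM9SF3, the largest fall among bright probe sets, went from 11.25, 11.17 and 11.06 to 9.42, 7.82 and 8.67 on 224755_at, whereas its brightest, 222399_s_at, read 12.91, 12.61 and 12.77 and then 13.09, 13.01 and 12.84. SUB1, a transcription coactivator, fell by 2.14 on 221727_at, yet its brightest probe set read 14.16 in both groups. ATP5MC3, of the ATP synthase ring, fell by 2.08 on 228168_at at a mean of 10.43 and differed by -0.00 on 207507_s_at at a mean of 14.11. PDHA1, of pyruvate dehydrogenase, fell by 2.15 on 200979_at and differed by -0.32 and -0.23 on the other bright ones. Of the 15 falling genes 13 had another bright probe set. Ranked on the mutant line arrays, which the calls did not use, the named probe set was not the brightest in 9 of the 13, and the brightest was called in the same direction in 1 of those, TMBIM4.

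All bright calls whose gene had another bright probe set were compared in the same way. The 168 fallen ones had a median of -1.29 against -0.33 for the brightest other probe set of the same gene, with the same sign in 72.6%. The 150 risen ones had 1.08 against 0.61, with the same sign in 76.0%. Choosing the other probe set by its signal in the mutant line gave medians of -0.37 and 0.59, with the same sign in 73.8% and 74.7%. By that ranking the fallen probe set was the brightest of its gene in 32.1% of cases and the risen one in 39.3%, against 40.2% of all bright probe sets of such genes. Called probe sets were picked for their change, so a smaller value on the other is partly fixed by that choice. Of the 15 largest rises 5 had another bright probe set. By the mutant line ranking the named one was not the brightest in 4, and the brightest was called in the same direction in 2 of those. A rise or fall named here is therefore a change on that probe set, and whether it reflects a transcript form was not tested.

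**Figure D4:**
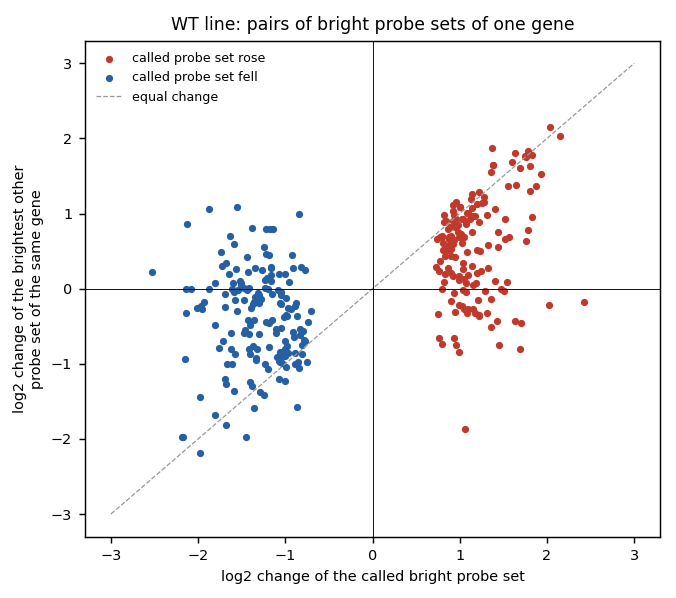
Change with tetracycline on a called bright probe set (horizontal, log2) against the change on the brightest other bright probe set of the same gene (vertical, log2), 1 point per called probe set, with a dashed line for equal change. Most of the 168 falls lie above that line (median -0.33 on the vertical axis against -1.29), and the 150 rises have medians of 0.61 and 1.08.

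The 3 treated arrays did not respond alike. Treated replicate 1 was the one nearest the untreated mean in 69.2% of the bright risen probe sets (182 of 263), in 81.8% of the bright fallen ones (211 of 258), in 13 of the 15 largest rises and in all 15 of the largest falls. Histone genes had median deviations of 0.96, 1.81 and 1.92 on treated replicates 1, 2 and 3, and ribosome biogenesis -0.09, -0.63 and -0.62. Stress response factors did not follow this order, with 1.01, 0.63 and 0.93, nor did amino acid genes, with 0.65, 0.37 and 0.30. Of the 11 risen genes of the stress response, amino acid and tRNA synthetase lists, treated replicate 1 was nearest in 2. The map of list medians by array shows the treated columns side by side.

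**Figure D5:**
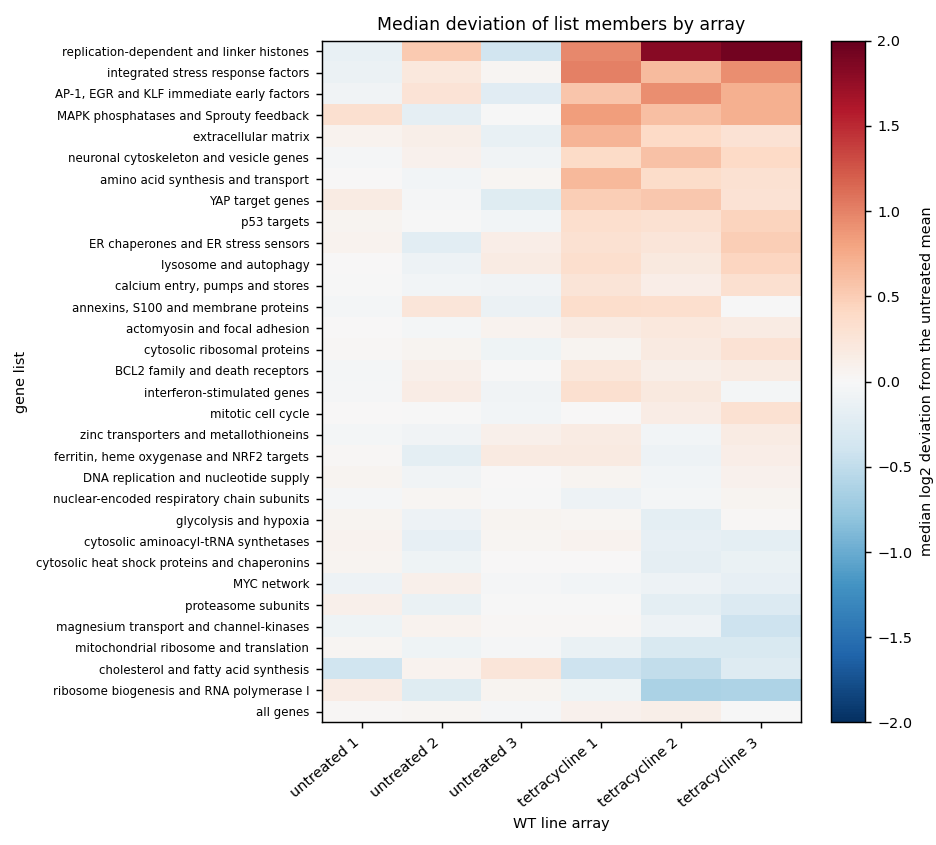
Median log2 deviation from the untreated mean over the members of each list (rows) on each WT-line array (columns), with all genes in the last row. Histones reach 1.92 on treated replicate 3, and the stress response factors lie between 0.63 and 1.01 on the treated arrays.

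The response was set against that of the mutant line by the difference of the changes in a fit of all 12 arrays. It was called on 8 of 54613 probe sets (0.0146%), all at an adjusted limma p of 0.0345. LGALS1 and DDIT3 rose more in the WT line, by 1.89 ± 0.26 and 1.81 ± 0.26, and PSIP1, MYOM2, SRI, OGFOD3, CYP4X1 and MARCKS fell more. DDIT3 in the mutant line read 9.43, 9.31 and 9.71 untreated and 9.48, 9.74 and 10.0 with tetracycline, so its groups overlapped there. LGALS1 in the mutant line read 10.02, 9.98 and 9.87 and then 10.27, 10.02 and 10.13, close to level. Of the 15 largest rises these 2 had a called difference, and of the 15 largest falls CYP4X1 had one. The count was 0 without treated or untreated WT replicate 3 or any 1 mutant array, and 1 without treated WT replicate 2. It was 2 and 7 without untreated WT replicates 2 and 1, and 2056 without treated WT replicate 1. The 1 call was not among the 8, and of the 7 calls 4 were. Both of the 2 calls were among the 8, and the 2056 held all 8. Where the count was 0, the number with an unadjusted limma p under 0.05 was 4546 to 5042. The same 30 probe sets changed in the mutant line by -0.04 to 1.03 for the rises and by -0.71 to 0.03 for the falls. In each direction 14 of the 15 had the same sign in both lines, but none of the 30 mutant changes passed. The share of all probe sets with the same sign in both lines was not computed. The 30 were picked for their change in the WT line, so a smaller change in the mutant line is partly fixed by that choice.

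For other members the changes in both lines can be set side by side. ASNS changed by 1.04 (WT) and 0.60 (mutant), a difference of 0.44 ± 0.19 (adjusted limma p 0.427). CTH changed by 1.60 and 0.81, a difference of 0.79 ± 0.25 (0.268), and TNFRSF12A by 2.17 and 1.03, a difference of 1.14 ± 0.37 (0.285). In these 3 genes the treated mutant arrays also lay above the untreated ones. None of the 3 mutant changes passed on its own in the fit of all 12 arrays. For CDKN1A the changes were 1.48 and 0.03, and for GADD45B 1.65 and 0.04, with differences at adjusted limma p-values of 0.058 and 0.147. A difference that misses the threshold does not show that the lines respond alike. The lines also differed in the spread of their arrays, with a median SD of 0.12 and 0.14 in the mutant groups, and in the actin 3′ to 5′ ratio, which was 0.23 to 0.29 on all 6 mutant arrays, and the part of these in the difference was not tested.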

How the data were processed

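Total RNA of the WT line was measured on 6 arrays, extracted with Trizol and labelled with biotin per the labels' protocols. The deposited values are MAS5 signals, a linear intensity per probe set, per the submitters' processing notes. Its version and settings are not given in the sources used here. The trimmed mean (2% at each end) was 500.1 on every array, so the deposited intensities had been scaled per array. Values under 1 (2211, or 0.337%) were set to 1 and log2 was taken. Of 54675 probe sets 62 AFFX controls were left out, and all 54613 others were tested with no filter. By the platform annotation 41091 carried 1 gene symbol, 1801 several and 11721 none. 0 columns were left out.

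The main fit used limma 3.58.1 (R 4.3.3; lmFit and eBayes with a variance trend) on the 6 WT-line arrays, 2-sided, Benjamini-Hochberg adjusted over all probe sets. It was tested on simulated data. The difference between lines came from a fit of all 12 arrays. Replicate numbers were not treated as pairs. The number of arrays limits the precision. Gene lists (31) used the brightest probe set of each gene. The genes named were the top 15 up and top 15 down of the called bright probe sets with 1 symbol and groups that did not overlap, and per list up to 4 bright members with the smallest p. Risen or fallen dim members of lists were named because their counts were small, after their values were seen, as were examples from the other lists. The genes and lists were chosen with earlier results of these data known. Promoters came from RefSeq (GRCh38.p14), with 1 start per gene. The alternatives were other probe set filters, an offset of 16 before log2, quantile normalization, no trend, all 12 arrays, array weights, a replicate block, a block of replicate 3 (lowest poly-A controls; no label sets it apart) against the others, and leaving out arrays. Ranking the probe sets of a gene by the mutant line, and counting any probe set, were added after seeing the data. Figures used matplotlib 3.10.9 in Python 3.11.15.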

Additional observations from a re-analysis of the deposited data

Results flagged for a closer look

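The change with tetracycline differed between the WT line and the mutant line on 8 probe sets by the test of the difference itself (limma, adjusted p 0.0345 for each). The test gave 0 calls after quantile normalization and without treated or untreated WT replicate 3 or any 1 mutant array, where the number with an unadjusted limma p under 0.05 was 4546 to 5458. LGALS1, galectin-1, changed by 2.08 (WT) and 0.19 (mutant), a difference of 1.89. DDIT3, the stress factor CHOP, changed by 2.06 and 0.26, a difference of 1.81. PSIP1, a chromatin-bound coactivator, changed by -1.41 and -0.06, a difference of -1.35, and its other called probe set fell by 1.24 in the WT line. CYP4X1, a cytochrome P450, changed by -2.06 and -0.20, a difference of -1.85. MARCKS, an actin-binding substrate of protein kinase C, changed by -1.36 and -0.09, a difference of -1.26, but -0.18 on its brightest other probe set in the WT line.

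The 3 others were dim with tetracycline in the WT line. MYOM2, a protein of the muscle sarcomere, went from 10.47 to 7.90 there and from 10.51 to 10.21 in the mutant line, a difference of -2.27. SRI, the calcium-binding protein sorcin, went from 9.83 to 7.01 and from 9.88 to 9.18, a difference of -2.12. OGFOD3, named for a family of oxygenases, went from 9.93 to 7.70 and from 8.91 to 9.04, a difference of -2.36. Untreated levels already differed between the lines for some of the 8: LGALS1 was at 9.09 (WT) and 9.96 (mutant), MARCKS at 12.43 and 11.6, OGFOD3 at 9.93 and 8.91, DDIT3 at 9.03 and 9.48 and CYP4X1 at 10.96 and 11.43.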

How the results depend on the processing

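All 63 changed named probe sets kept their direction under every alternative run. For every alternative but quantile normalization that was fixed in advance, since their groups did not overlap. The WT count of 723 became 3970 with all 12 arrays in the fit, 1898 with array weights, 1351 or 1364 when only means above 8 (17375 probe sets) or above the median (25551) were tested, 327 with replicate 3 blocked against the others, and 0 without the variance trend, where 5849 had an unadjusted limma p under 0.05. It stayed within 1.5 times at 590 with an offset of 16 and 658 after quantile normalization. Leaving out single arrays gave 0 to 2963 probe sets, and leaving out replicate 3 of both groups gave 0, with 4231 at an unadjusted limma p under 0.05. The share of calls that rose was 49.5%, against 66.7%, 69.2% and 40.7% without untreated replicate 1, untreated replicate 2 and treated replicate 1. The replicate block gave 2613 calls. Over bright probe sets, the deviations of same-numbered arrays from their group means correlated at 0.462, 0.507 and 0.0926. Arrays of unlike number gave -0.506 to 0.238. Treated replicates 1 and 2 thus correlated best with the untreated array of their number. Treated replicate 3 correlated best with untreated replicate 2 (0.238), though all same-numbered values were positive. Over both lines, values under 1 numbered 68 to 128 on replicate 1 arrays, 131 to 213 on replicate 2 and 235 to 318 on replicate 3. The main fit did not take the numbers as pairs, and whether they mark a shared batch was not tested. The causes were not tested.

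The difference between lines, called on 8 probe sets, had 87 calls with array weights, 80 when means above 8 were tested, 13 with the offset, 0 after quantile normalization (smallest adjusted limma p 0.0527, 5458 at an unadjusted p under 0.05), 21 with the replicate block and 0 to 2056 when single arrays were left out, the highest without treated WT replicate 1 and 0 without any 1 mutant array. Taking each gene's brightest probe set from the mutant line, chosen after seeing the data, changed the list counts for immediate early risers and sterol falls alone, from 2 to 1 each. Of the named genes that did not pass, IFITM2, at -0.12, turned to 0.0707 without untreated replicate 2, the highest of its values when 1 array was left out (lowest -0.283). Of the 63 changed named probe sets, 54 passed with the offset, 56 after quantile normalization, 42 with replicate 3 blocked, 5 and 24 without untreated replicates 1 and 2, and 0 without the trend.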

Other observations

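Probe sets of the same gene changed in opposite directions in 7 genes, each with a call both ways: ANP32E, DCAF7, LSS, NEDD4L, PAFAH1B1, PPM1A and UBE2K. ANP32E, a histone chaperone, went from 11.53 ± 0.34 to 13.22 ± 0.43 (SD, n = 3) on 208103_s_at and from 13.1 ± 0.05 to 12.3 ± 0.21 on 229128_s_at. UBE2K, a ubiquitin-conjugating enzyme, changed by 1.09 on 202347_s_at and by -1.56 on 225179_at, which are about equally bright when untreated (11.31 and 11.15). PAFAH1B1, the dynein regulator LIS1, changed by 1.06 and -1.87, and PPM1A, a stress kinase phosphatase, by 0.81 and -1.38. DCAF7 changed by 0.99 and -0.85. LSS and NEDD4L each had 1 dim member of the pair, LSS at 1.39 on the dim 211018_at against -1.54, and NEDD4L at -1.96 on the dim 226974_at against 0.90. Which transcript forms these probe sets read was not analysed here.
IRS4, a marker of HEK cells and the only one of the 10 measured to change, read 14.93 untreated and 13.37 with tetracycline on 1560652_at (-1.56 ± 0.21, adjusted limma p 0.0166) and differed by -0.30 on its other bright probe set.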
